A study of Saccharomyces cerevisiae BY4741 with 25 samples.

Results

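LEU2 (YCL018W, chromosome 3) was described from every call that the variant lists of 9 yeast genomic DNA libraries place in the gene or give it as an effect symbol. These were 49 of 4459 calls, at 9 positions. A call is 1 row of such a list, with the reads covering a position and the percent of them that carry an allele other than the reference. Percents were rounded down by the authors, and each share stands for the reads of 1 library. The gene was chosen by its alleles, alternate shares and read depth in these same lists, so those values are given as descriptions, and no test was made on them.

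Whole-genome sequencing was used here to find mutations that derepress SIR2, the histone deacetylase gene that keeps the ribosomal RNA gene repeats stable, in the budding yeast background BY4741. The 8 mutant libraries were RRC1_rrn9 (strain name YTT67_alpha25), RRC2_rrn10 (YTT66_a17), RRC3_rrn5 (YTT66_a19), RRC4 (YTT67_alpha5), RRC5_uaf30 (YTT66_a40), RRC6 (YTT66_a296A), RRC7 (YTT66_a33) and RRC8 (YTT66_a44), called RRC1 to RRC8 from here on. Each was a pool of mutant clones from spores of a backcross, of mixed mating type, cultured separately to stationary phase in rich medium and sequenced as 1 library. The ninth library combined the starting strains YTT66 and YTT67, and all 9 lists come from single libraries without replicates. By strain name RRC1 and RRC4 descend from YTT67 and the other 6 mutants from YTT66. The description of RRC4 speaks of the starting strains, while its title and strain name are those of a mutant. The labels do not say whether any strain carries LEU2 as a marker, on what vector, or how many clones entered a pool.

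LEU2 encodes beta-isopropylmalate dehydrogenase, an enzyme of the leucine branch of amino acid synthesis. It acts after the synthases of LEU4 and LEU9 and the isomerase of LEU1, and the aminotransferases of BAT1 and BAT2 complete the pathway. Because cells without the gene need leucine in their medium, LEU2 is one of the most used selectable markers of yeast genetics, carried on plasmids or inserted beside an engineered allele. BY4741 is known as a strain from which the chromosomal LEU2 gene was deleted, in which case reads that map to the gene come from copies brought in. Reads from different copies of a marker map to the same place, so copies that differ in sequence appear in a variant list as alleles that share the reads.

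Of the 49 calls, 43 were in the reading frame at 8 codons and 6 were upstream of it. All 43 were annotated as synonymous, so none of the listed alleles changes the Leu2 protein. The codon number and position of each call place the first base of the frame at 91324 in the authors' coordinates. This equals the start of the gene in the RefSeq table of assembly R64, although no source used here names the authors' genome build. The 8 changes were at the third base of their codon, and they are shown here because their shares, given below, divide the reads of the gene. With the changed base in capitals, codon 84 was acC in the reference and acA as the alternate (C91575A, threonine), and codon 214 was ttC and ttT (C91965T, phenylalanine). Codon 135 was gtC and gtT (C91728T, valine), codon 218 was aaG and aaA (G91977A, lysine), and codon 261 was ggT and ggC (T92106C, glycine). Codon 288 was caC and caT (C92187T, histidine), codon 290 was tcT and tcC (T92193C, serine), and codon 323 was aaG and aaA (G92292A, lysine).

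The upstream call is the loss of 1 AT unit from a repeat that starts 37 bases before the frame, at chr3:91287-91303 on the plus strand, the strand of LEU2. The alleles are shown 5′ to 3′ because this was the one LEU2 change carried by nearly all reads. The capitals mark the last AT unit, which stands for the unit that is missing, although any of the units could be the lost one.
reference: aatatatatatatatAT
alternate: aatatatatatatat

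Reads at the LEU2 codons called were several times those at other nuclear calls in all 9 libraries, while the upstream calls stood lower and mitochondrial calls were deep too, as given below. Depth is given as the reads at a call over the library's median reads over the calls that scored at least 200, which ranged from 44 to 71 reads. All 49 LEU2 calls were at 2 times this median or more. The share of nuclear calls at that depth, LEU2 included, was 2.4%, 1.22%, 1.21% and 1.68% in RRC1 to RRC4, 1.22%, 1.28%, 1.63% and 2.25% in RRC5 to RRC8, and 2.71% in the parental pool. Over the 9 lists these were 76 calls, 49 of them in LEU2 and 27 elsewhere. The highest nuclear call outside LEU2 stood at 1.93 (RRC3) to 2.42 (RRC1) times the median in the mutant pools and at 2.51 times in the parental pool, whereas the highest LEU2 call stood at 5.51 (RRC1) to 26.2 times (RRC6) in the mutant pools and at 21.2 times in the parental pool.

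The median over a library's LEU2 calls differed several-fold between pools. The medians run over different positions, since the codons called differ and 6 pools include the upstream call, so libraries are ordered by them only roughly. It was lowest in RRC1, at 4.98 times the library median (exact Poisson 95% interval of the reads 4.45 to 5.55), and RRC4, at 7.05 times (6.41 to 7.73). RRC3 followed at 9.64 times (8.87 to 10.5) and RRC7 at 9.77 times (9.01 to 10.6). RRC5 stood at 15.1 times (14.1 to 16.1) and RRC2 at 18.1 times (17.1 to 19.1). RRC8 stood at 19.7 times (18.6 to 20.9) and RRC6 at 21.1 times (19.8 to 22.5), against 20.9 times (19.7 to 22.0) in the parental pool. At codon 218, called in all 9 lists, RRC3 stood at 15.1 times (14.2 to 16.2) and RRC7 at 10.2 times (9.48 to 11.1). RRC6 stood there at 26.2 times (24.7 to 27.8) and RRC8 at 22.2 times (21.0 to 23.4), against 21.2 times (20.0 to 22.4) in the parental pool. At this codon the intervals of RRC3 and RRC7 did not overlap, RRC6 lay above both RRC8 and the parental pool, and the intervals of RRC8 and the parental pool overlapped. The intervals cover the counting of reads within 1 library only, and amplified reads are not independent molecules. With the median over all calls as the divisor the mutant pools stood at 6.88 to 48.8 times and the parental pool at 34.4 times, with RRC1 and RRC4 still the lowest. 

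**Figure D1:**
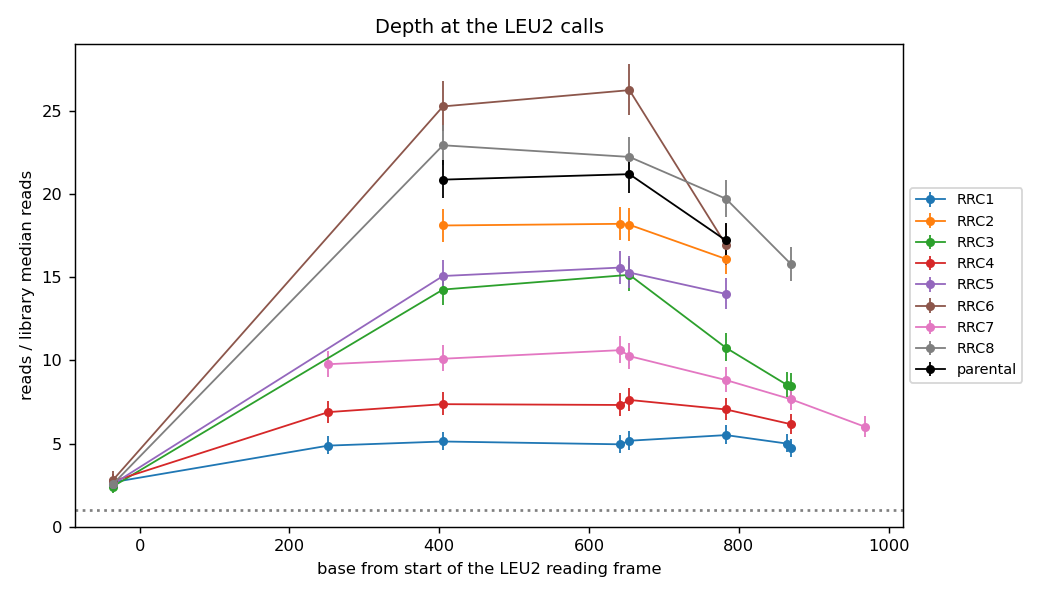
Reads at each LEU2 call over the library's median reads, by distance in bases from the start of the reading frame, for the 8 mutant pools and the parental pool (black). Bars are exact Poisson 95% intervals and the dotted line is the library median; the upstream calls lie together at 2.42 to 2.80 times the median while calls in the frame spread from 4.72 to 26.2 times.

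The lists agreed on 3 alleles and differed in the rest. The alternate alleles of codons 135, 218 and 261 were called in all 9 lists. The codon 214 allele was called in RRC1, RRC2, RRC4, RRC5 and RRC7, and the codon 84 allele in RRC1, RRC4 and RRC7. The codon 290 allele was called in RRC1, RRC3, RRC4, RRC7 and RRC8, the codon 288 allele in RRC1 and RRC3, and the codon 323 allele in RRC7 alone. Of 46 calls in the mutant lists, 22 were of alleles not in the parental list, 16 of them in the frame. Over all regions, 42.5% of the 4012 calls in the mutant lists were absent from the parental list at the same position and alleles, so the count for LEU2 is near that of the lists as a whole. A list gives no reads where nothing was called, so an allele missing from a list is not a count of 0. Codons 288 and 290 lie 6 bases apart, and in RRC4, RRC7 and RRC8 the second was called without the first. Of the 3633 single-base calls of the 9 lists, 94 had a share under 20%, the lowest 13%.

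By their shares, the alleles of the reading frame formed 2 sets, drawn up after the shares were seen: an allele was put with that of codon 218 when its share was on average closer to that share than to the rest of the reads. In every library the alleles of codons 135, 218, 261, 288, 290 and 323 lay within 13 percentage points of each other, while those of codons 84 and 214 took the opposite course across pools. In RRC1 the set of codon 218 had 28% of 336 reads at codon 218 (exact Clopper-Pearson 95% interval 23.5 to 33.4%) and 22 to 28% over its 5 calls. Codons 84 and 214 had 76% of 317 reads (70.9 to 80.6%) and 68% of 322 reads (62.6 to 73.1%) in the same pool. RRC1 was thus the one pool where the codon 84 and codon 214 alleles both held most of the reads.

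In RRC4 the sets were near equal, with 54% of 480 reads at codon 218 (49.6 to 58.7%), 55% of 434 at codon 84 (50.3 to 59.8%) and 44% of 461 at codon 214 (39.4 to 48.7%). RRC7 had 66% of 656 reads at codon 218 (62.2 to 69.6%), 38% of 625 at codon 84 (34.3 to 42.0%) and 33% of 679 at codon 214 (29.6 to 36.8%). In RRC2 and RRC5 the codon 214 allele was a minority, at 20% of 1292 reads (17.9 to 22.3%) and 21% of 981 reads (18.6 to 23.8%). These 2 calls had low scores, 38 and 14.2, against 225, 225 and 169 for codon 214 in RRC1, RRC4 and RRC7. Of the 49 LEU2 calls, 28 scored at least 200. At codon 218, RRC2 and RRC5 had 79% of 1288 reads (76.7 to 81.2%) and 77% of 962 reads (74.2 to 79.7%). The 3 mutant pools without a call at either codon 84 or codon 214 had high shares at codon 218, 76% of 908 reads in RRC3 (73.2 to 78.8%), 84% of 1154 in RRC6 (81.8 to 86.1%) and 84% of 1333 in RRC8 (81.9 to 85.9%). The parental pool, which also lacked those calls, had 82% of 1292 reads (79.8 to 84.1%). The share in RRC3 was no higher than in RRC2 and RRC5, where the codon 214 allele was called.

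**Figure D2:**
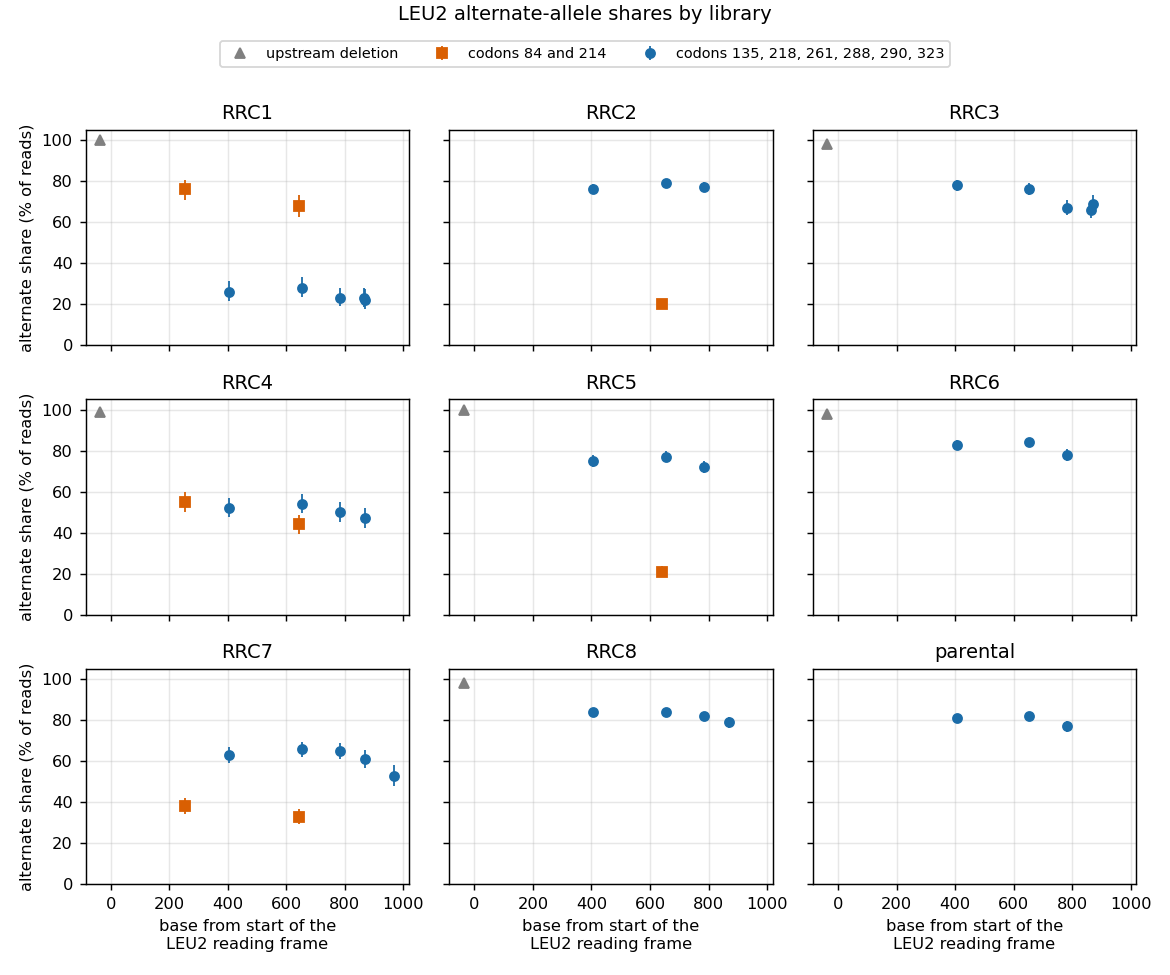
Alternate share of the reads, in percent, at each LEU2 call of the 9 libraries, by distance in bases from the start of the reading frame. Squares are codons 84 and 214, circles the other 6 codons and triangles the upstream deletion, with exact 95% binomial intervals for the codons; squares lie above circles in RRC1, level with them in RRC4 and below them in RRC2, RRC5 and RRC7.

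Codons 214 and 218 are 12 bases apart, so a sequencing read that covers one mostly covers the other, and their 2 shares added up to nearly all reads. The sum was 96% in RRC1, 99% in RRC2, 98% in RRC4, 98% in RRC5 and 99% in RRC7. In RRC2 and RRC5 it rests on codon 214 calls that scored only 38 and 14.2. Nearly every read thus carried an alternate base at one of these 2 codons, provided that no read carried both. The lists do not say which alleles lie on the same read. For codons 84 and 135, 153 bases apart, the sum was 102% in RRC1, 107% in RRC4 and 101% in RRC7. Those 2 positions can be covered in part by different reads, and the lists do not say whether a copy carries both alternate bases. Why these sums exceed 100% was not tested.

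Split by allele, the reads without the codon 218 alternate allele stood at a like depth in all 9 libraries, and the reads with it did not. Because percents were rounded down, the reads without it are upper bounds. There were at most 241, 270, 217 and 220 reads without it in RRC1 to RRC4 and 221, 184, 223 and 213 in RRC5 to RRC8, against 232 in the parental pool. Over the library median these were 3.71, 3.80, 3.62, 3.49, 3.51, 4.18, 3.48 and 3.55 times in RRC1 to RRC8, against 3.80 times in the parental pool. With the most alternate reads that a percent allows, the reads without it were at least 258 in RRC2 and 200 in RRC8, or 3.63 and 3.33 times the median. By the upper bounds the highest was 1.20 times the lowest, and the 9 exact Poisson 95% intervals shared the range from 3.60 to 3.97. Leaving out RRC6, the library of lowest median depth, the range was 3.48 to 3.80 times. With the median over all calls as the divisor, low-scoring ones included, the 9 values ran from 4.31 to 9.68 times and the highest was 2.24 times the lowest, so the likeness in depth depends on the divisor. It also depends on the codon, and was looser at codons 135 and 261, called in all 9 lists too. At codon 135 the reads without the alternate allele ran from 3.13 (RRC3) to 4.34 times (RRC2) the library median, the highest 1.38 times the lowest. At codon 261 they ran from 3.08 (RRC7) to 4.23 times (RRC1).

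The reads with the codon 218 alternate allele numbered 95, 1018, 691 and 260 in RRC1 to RRC4 and 741, 970, 433 and 1120 in RRC5 to RRC8, against 1060 in the parental pool. Over the library median these were 1.46, 14.3, 11.5, 4.13, 11.8, 22.0, 6.77 and 18.7 times in RRC1 to RRC8, against 17.4 times in the parental pool. The highest was 15.1 times the lowest. At codon 218, the difference in depth between libraries was thus nearly all in the reads with this allele.

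**Figure D3:**
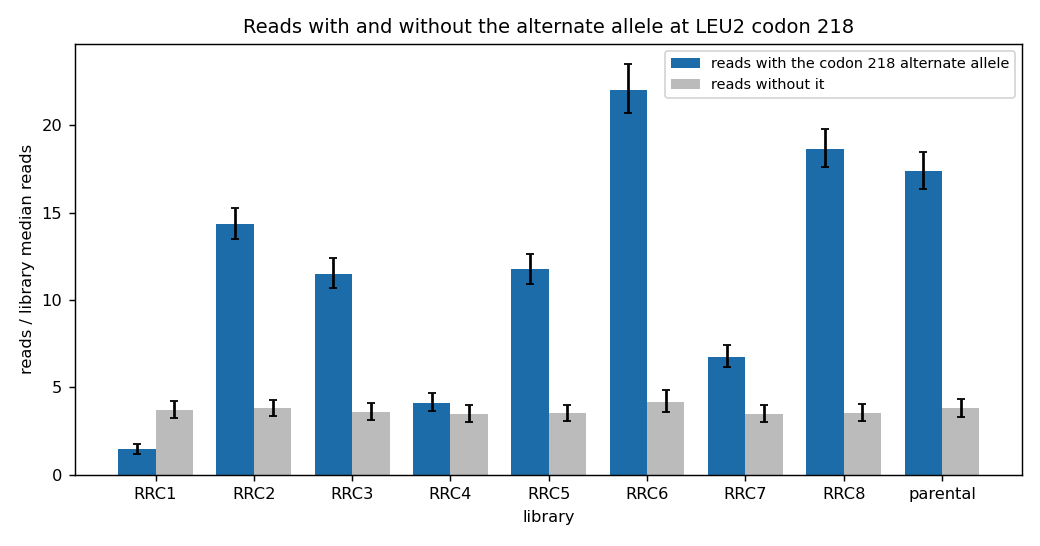
Reads with the alternate allele of LEU2 codon 218 (blue) and without it (grey) in each library, over the library's median reads, with exact Poisson 95% intervals. Grey bars stand between 3.48 and 4.18 times the median in all 9 libraries, while blue bars run from 1.46 times in RRC1 to 22.0 times in RRC6.

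The alternate alleles of codons 84 and 214 stood at a depth near that of the reads without the codon 218 allele. This is partly set by the grouping, which put them together because their shares were close to the rest of the reads at codon 218. The codon 214 allele stood below those reads in RRC1, RRC2, RRC4 and RRC5 and above them in RRC7. Its reads are lower bounds, and the reads without the codon 218 allele are upper bounds. The codon 214 allele was at 3.37 times the library median in RRC1, 3.65 in RRC2, 3.22 in RRC4, 3.29 in RRC5 and 3.52 in RRC7. The codon 84 allele was at 3.71 times in RRC1, 3.79 in RRC4 and 3.72 in RRC7. The share of these alleles therefore differed between pools, from 20 to 68% at codon 214, while their depth hardly did.

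Taking the library median as 1 copy per haploid genome, a convention and not a measurement, the values at codons 218, 84 and 214 match a pool with 2 kinds of LEU2 sequence. One kind, with the alternate bases of codons 84 and 214, amounts to 3.22 to 3.79 copies in the 5 pools where either was called. Over all 9 libraries, the reads without the codon 218 allele stood at 3.48 to 4.18 times the median. The other kind, with the alternate bases of codons 135, 218 and 261, amounts to 1.46 copies in RRC1 to 22.0 in RRC6 at codon 218. With the median over all calls as the divisor it amounts to 2.02 to 51.1 copies, and the first kind also depends on the divisor. Both copy numbers are averages over the cells of a pool: fewer cells with a sequence and fewer copies per cell cannot be told apart. The description does not account for all missing calls. Codon 290 was not called in RRC2, RRC5, RRC6 or the parental pool, where the codon 218 share was 77 to 84%. Codon 84 was not called in RRC2 and RRC5, where codon 214 was. Neither was called in RRC3, where 24% of the reads lacked the codon 218 allele, against 21% in RRC2 and 23% in RRC5. Codon 323, called in RRC7 alone, was 13 points from the codon 218 share and 19 from the rest of the reads. Mitochondrial calls, another sequence of high copy number, had median reads of 19.2 to 40.5 times the library median in the mutant pools and 18.5 times in the parental pool.

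The repeat upstream of the frame did not share the depth of the codons. Its deletion was called in 6 mutant pools, on 174 reads in RRC1 (100%), 145 reads in RRC3 (98%), 172 reads in RRC4 (99%), 161 reads in RRC5 (100%), 123 reads in RRC6 (98%) and 153 reads in RRC8 (98%). Over the library median the reads there were 2.68 times in RRC1 and 2.73 in RRC4, the YTT67 pools, against 2.42 in RRC3, 2.56 in RRC5, 2.80 in RRC6 and 2.55 in RRC8. These 6 values lay within each other's exact Poisson 95% intervals, in pools whose depth at codon 218 ran from 5.17 (RRC1) to 26.2 times (RRC6). Reads at this position were thus below the depth of the reads without the codon 218 allele, and they did not follow the codon 218 allele, whose depth in these 6 pools ran from 1.46 to 22.0 times. How many reads the caller loses in such a repeat was not tested. RRC2, RRC7 and the parental pool had no call at this position.

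Along the frame, reads with the alternate alleles were fewer on the 3′ side of codon 218, more so than the reads without them. Codon 218 was chosen because it held the highest depth among the codons called in all lists, so values below it on either side are partly set by that choice. At codon 135 the alternate reads were 91.6 to 103% of those at codon 218, with a median of 96.0% over the 9 libraries, and the others were at 86.6 to 114%, with a median of 103%. The alternate percent was the lower one in 8 of 9 libraries there too. At codon 261 they had dropped to 60.0% (RRC6) to 87.4% (RRC1), with a median of 85.4%, while reads without the allele stood at 88.3 to 114%, with a median of 99.5%. The alternate reads had dropped further than the others in 9 of 9 libraries. At codon 290 the alternate reads were at 50.9 to 71.6% (median 69.1%) and the others at 72.4 to 99.2% (median 93.0%), again lower in 5 of 5 libraries. RRC7, with the one call at codon 323, had 47.1% of the alternate reads and 80.7% of the others left there. The steepest drops at codon 261 were those of RRC6 (60.0%) and RRC3 (62.7%).

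The shares restate this drop, since a share falls wherever the alternate reads drop further than the others. At codon 261 the share was lower than at codon 218 in all 9 libraries. The drop between these codons was smallest in RRC7, from 66 to 65%, and largest in RRC3, from 76 to 67%. Over all codons of the set, the shares spread most in RRC3 and RRC7. In RRC3 the share fell to 66% of 512 reads at codon 288 and 69% of 509 at codon 290, against 78% of 855 at codon 135. In RRC7 it fell to 53% of 384 reads at codon 323, against 63% of 646 at codon 135. A share at 1 codon is thus not the share of the whole set. The copies counted above for the kind with the codon 218 allele hold for codon 218, while those of the first kind were counted at other codons.

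**Figure D4:**
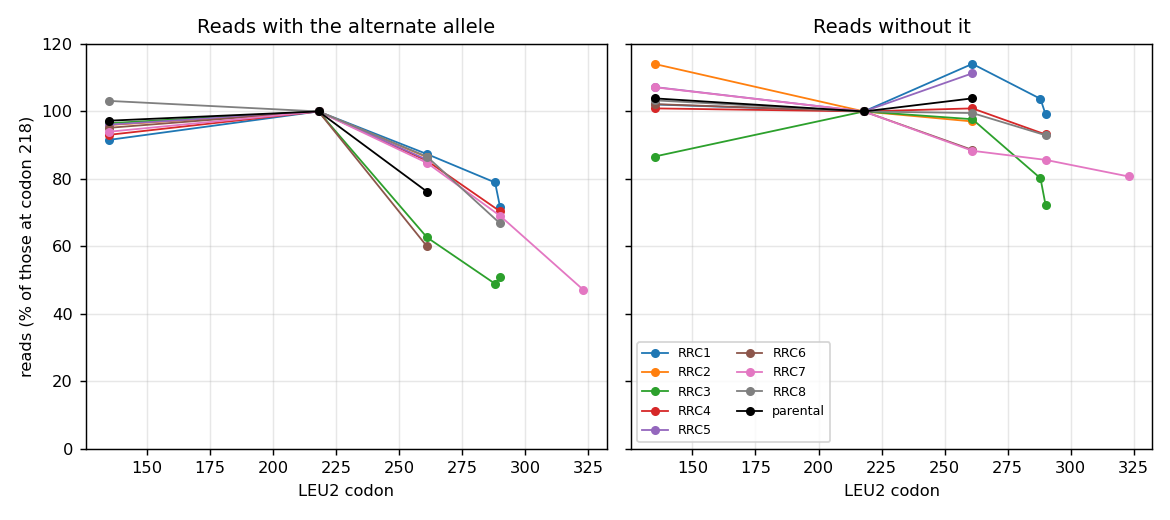
Reads with (left) and without (right) the alternate allele at codons 135, 218, 261, 288, 290 and 323 of LEU2, in percent of those at codon 218 of the same library, 1 line per library. Alternate reads drop to between 60.0 and 87.4% at codon 261 while the others stay between 88.3 and 114%.

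The 2 pools derived from YTT67 had the lowest median LEU2 depth of the 8 mutants. This order did not hold at the lowest position, where RRC1 had 2.68 and RRC4 2.73 times the library median, against 2.42 in RRC3. It did not hold over calls with a score of at least 200 either, where RRC1 had 4.88 and RRC4 7.05 times, against 2.55 in RRC8 from its upstream call alone. At codon 218 they stood at 7.62 (RRC4) and 5.17 times (RRC1) the library median, against 10.2 to 26.2 times (median 16.7) in the 6 pools derived from YTT66, and the groups did not overlap. The share of the codon 218 allele was 54% (RRC4) and 28% (RRC1), against 66 to 84% in the 6 other pools. Reads without the allele were at 3.49 and 3.71 times the median in the YTT67 pools, against 3.48 to 4.18 times in the YTT66 pools, which overlapped. Of 189 nuclear positions called in all 8 mutant lists, 4 (2.12%) were lower in both YTT67 pools than in all YTT66 pools, and 3 of these 4 were the LEU2 codons 135, 218 and 261. With 1 library for each mutant, the starting strain and the individual cross cannot be told apart, and the parental list combines both strains.

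No other nuclear gene with a call in all lists had such depths. Of 106 nuclear genes called in all 9 lists, the closest by the mean absolute difference of log2 depth from LEU2 was MPH3, a maltose permease gene near a chromosome end, at 2.80 log2 units, followed by MST28 at 2.84, YMR046C at 3.17, POL5 at 3.20 and PAU9 at 3.34. The same 5 genes had the highest mean depths, from 1.25 (PAU9) to 1.83 times (MPH3) the library median. The likeness is of read depth over 9 libraries and of nothing else, and it is a distant one.

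Of 13 other genes of the branched-chain pathway, 2 had a call inside the gene, each in 1 pool. Of the 6021 protein-coding genes of the RefSeq table, 9.47% had a call inside in at least 1 of the 9 lists, so nothing is read from the count. LEU1, the isomerase gene, had C627Y in RRC4 on 69% of 73 reads, and ILV3, the dihydroxyacid dehydratase gene, had G110S in RRC7 on 52% of 75 reads. Their depths were 1.16 and 1.17 times the library median. The other marker genes looked at, HIS3, URA3, MET17, LYS2, TRP1, ADE2 and CAN1, had 0 calls inside the gene in any of the 9 lists, so nothing can be said of their depth.

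Around LEU2 on chromosome 3 the calls had depths near the library median. Of 8 neighbouring genes, 7 of them in the RefSeq table, BUD3, KCC4 and YCL022C had a call inside, all with 70 or 73 reads, and YCL022C is the one that the table does not list as a gene. BUD3, a bud site selection gene, had A1271T in RRC2 on 20% of 73 reads, 1.03 times the library median. A single call in RRC1, on 57% of 70 reads (1.08 times), lay in both KCC4, a septin-associated kinase gene, and the overlapping YCL022C. Over the other calls on chromosome 3 with a score of 200 or more, 8 to 14 in a mutant pool and 10 in the parental pool, the median was 46.5 to 71 reads in the mutant pools and 62.5 reads in the parental pool. The calls inside the neighbouring genes lay at positions 82068 and 100091, each in 1 pool, while the LEU2 frame starts at 91324. The high depth was thus seen at LEU2 and not at these calls, and the lists do not show where between them it ends.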

How the data were processed

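Genomic DNA of 9 of the 25 samples was analysed; the 16 chromatin immunoprecipitation samples were not used here. The deposited data were 9 full and 8 shortened lists of called variants. Per the file headers, each call has a score (MapQ), a count of reads and, as a percent, the alternate reads among them. The submitters' processing notes name SAMtools 0.1.19, Bowtie 1.0.0 and MACS2 without saying what each did. The caller, its filters and the build are not given in these sources. At all 2689 calls of up to 50 reads the deposited percent equals whole reads over depth, rounded down, so alternate reads were taken as the fewest that give it, a lower bound above 100 reads. LEU2 calls were those with YCL018W as region or LEU2 as effect symbol. Depth was divided by the library's median reads over calls scoring at least 200. Intervals are exact 95% (Clopper-Pearson, Poisson) and cover counting error only, and the divisor's error is not in them. The members, lists and rules were chosen with earlier results of these data known. Besides LEU2, the named genes were any with a call inside from lists of the pathway, marker genes and neighbours, and the 5 nearest LEU2 in depth and the 5 of highest mean depth. Alternatives covered 4 other divisors, other summaries over positions, a score minimum, the shortened lists and a fold of 3. Gene symbols came from the RefSeq table of assembly R64. Scripts ran in Python 3.11.15 with NumPy 2.4.6, SciPy 1.17.1, pandas 2.3.3 and Matplotlib 3.10.9.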

Additional observations from a re-analysis of the deposited data

How the results depend on the processing

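No paired analysis was possible because each genomic library is the one sample of its group and no test was made. With the median of all calls as divisor, the LEU2 depth was 6.88, 25.2, 22.7, 8.71, 24.3, 48.8, 15.6 and 30.3 times the median in RRC1 to RRC8 and 34.4 in the parental pool. Reads without the codon 218 allele, under this divisor an alternative chosen after seeing the data, were 5.13, 5.29, 8.51, 4.31, 5.67, 9.68, 5.58 and 5.46 times in RRC1 to RRC8 and 6.27 in the parental pool. The highest was then 2.24 times the lowest, so their like depth rests on the divisor; for the 3 divisors that keep nuclear calls by score it was 1.19 to 1.22 times, and reads with the allele differed 13.6 to 25.3-fold under these 4. The 3 score-based divisors left the LEU2 depth inside its interval in all 9 libraries. With all calls as divisor the nuclear calls at 2 times the median or more made up 6.01% in RRC1, 4.88% in RRC2, 30.4% in RRC3, 11.2% in RRC5, 24.6% in RRC6, 8.33% in RRC7, 11% in RRC8 and 12.4% in the parental pool, while RRC4 (2.69%) stayed within its interval. At 3 times the median they were 0.899% in RRC8 and 0.677% in the parental pool, and in the other 7 pools, at 0.641 to 1.42%, they stayed within their intervals.

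The highest position moved the LEU2 depth to 15.1 in RRC3, 26.2 in RRC6, 10.6 in RRC7 and 22.9 in RRC8. The lowest gave 2.68, 16.1, 2.42, 2.73, 2.56, 2.8, 6 and 2.55 in RRC1 to RRC8 and 17.2 in the parental pool. Calls inside the reading frame gave 10.8 in RRC3, 25.2 in RRC6 and 21 in RRC8. A score of at least 200 gave 8.53 in RRC3, 2.56 in RRC5, 2.8 in RRC6 and 2.55 in RRC8, and left 3 calls in RRC1, 3 in RRC3 and 1 each in RRC5, RRC6 and RRC8, where in the last 3 the upstream deletion alone remained. RRC1 and RRC4 stayed the lowest mutants under the other settings, but not at the lowest position or with a score of at least 200. Counting the most reads that give a percent moved none of the 49 shares out of its interval. The shortened lists lacked the codon 261 call in RRC4 and RRC7 and held the other LEU2 calls. Depth limits the shares to exact 95% intervals of 17.9 to 22.3% (20% of 1292 reads, RRC2) and 23.5 to 33.4% (28% of 336 reads, RRC1).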
